A study of Mus musculus with 18 samples.

Results

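The regions described here carried H3K27me3 in wild-type embryonic mouse brain at embryonic day E12.5 and had no interval in any Ezh2 knockout library of that stage. The autosomal intervals of the 3 wild-type (WT) and 3 knockout (KO) E12.5 interval lists were joined wherever they overlapped, which gave 12311 union regions. A region was kept when at least 2 of the 3 WT lists and none of the 3 KO lists had an interval in it, and 1439 regions met this rule, called the members below. The members were thus chosen by the E12.5 interval lists themselves, and E12.5 values are given as a description, without a test. Of these, 116 had an interval in all 3 WT lists, 1313 in WT replicates 2 and 3 only, 6 in replicates 1 and 2 only and 4 in replicates 1 and 3 only. The study profiled H3K27me3 by CUT&Tag, in which an antibody guides a transposase to cut and tag the chromatin that carries the mark, in nuclei of the medial ganglionic eminence (MGE), the embryonic source of many cortical interneurons. Males of genotype Nkx2.1-CreC/C;Ezh2F/+ were crossed to Ai9F/F;Ezh2F/+ females, so that WT and KO embryos of both stages carried 1 copy each of the Nkx2.1-Cre driver and the Ai9 (tdTomato) reporter and differed in Ezh2. Cre acts only in cells of the Nkx2-1 lineage, so that cells of the dissected tissue outside that lineage keep Ezh2 in the KO too. At E12.5 the entire MGE was taken, at E15.5 the tdTomato-positive MGE under fluorescence, and tissue of embryos of 1 genotype was combined in some cases. Each of the 4 groups (E12.5 WT, E12.5 KO, E15.5 WT and E15.5 KO) had 3 libraries, which the labels number as biological replicates.

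Ezh2 is the main catalytic subunit of Polycomb repressive complex PRC2, which places methyl groups on lysine 27 of histone H3. The trimethylated form, H3K27me3, covers the promoters and often the whole bodies of developmental regulators that a cell lineage keeps silent, and is diluted by cell division once PRC2 activity is lost. In a given tissue the mark generally lies over regulators of other regions and of other germ layers, while the promoters of active genes are largely without it. In these lists the presence of an interval did not show that separation, as described below.

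Each list gives, per interval, its position on the mm10 build, the authors' count and a score. The lists hold no control track and no value outside the listed intervals, so that a region without an interval had no value rather than a value of 0. The depth of each library, recovered from the scores as the mean count per 200 bp window, was 0.117, 0.698 and 0.481 for WT replicates 1 to 3 at E12.5 and 0.212, 0.272 and 0.243 for the KO replicates. The lists held 4933, 10730 and 10493 autosomal intervals in WT and 4575, 8402 and 9755 in KO. WT replicates 2 and 3, the deepest libraries of the series, were together required for all but 10 members. At E15.5 the order was reversed, with depths of 0.0751, 0.129 and 0.150 in WT and 0.179, 0.216 and 0.346 in KO. The E12.5 lists also differed in their lowest listed score, from 12.8 in KO replicate 3 to 26.9 in KO replicate 1. Counts divided by depth and multiplied by the mean depth of the 12 libraries are called normalised counts. As a check of the tissue labels, 10 of 10 regulators that are silent in the forebrain (among them Hoxa13, Hoxd13, Myod1 and Tbx5) had an interval in every one of the 12 libraries. Of 9 genes active in the MGE, 7 or 8 had an interval in each E12.5 library and 4 to 8 in each E15.5 library, so that these lists do not separate active from silent genes by presence alone. The lists carry no measure of Ezh2 deletion itself.

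The member that covers the 5′ end of Zeb2 is shown first, because it was the only one of the widest and best supported members in which an annotated gene start with a promoter sequence lay. Zeb2 encodes a zinc-finger homeobox repressor that directs MGE-derived cells to the cortex. The member spans chr2:45103001-45117400, 14.4 kb, on mm10, and the gene lies on the minus strand. RefSeq (GRCm38.p6) places start sites at chr2:45113279 and chr2:45110277 within it, and the 250 bases before each are printed 5′ to 3′, with CpG dinucleotides in capitals. The third sequence is the promoter inside the member at Ablim1, an actin-binding LIM protein gene, chr19:57197632-57197881, also on the minus strand; that member was listed at E15.5 by every KO and by no WT library, and the sequence was chosen after its values were seen.
Zeb2 upstream promoter, chr2:45113280-45113529: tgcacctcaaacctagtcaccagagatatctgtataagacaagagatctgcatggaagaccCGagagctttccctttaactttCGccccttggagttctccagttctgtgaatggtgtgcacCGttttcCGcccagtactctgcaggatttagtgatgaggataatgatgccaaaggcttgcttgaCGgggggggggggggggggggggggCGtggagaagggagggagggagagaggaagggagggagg
Zeb2 downstream promoter, chr2:45110278-45110527: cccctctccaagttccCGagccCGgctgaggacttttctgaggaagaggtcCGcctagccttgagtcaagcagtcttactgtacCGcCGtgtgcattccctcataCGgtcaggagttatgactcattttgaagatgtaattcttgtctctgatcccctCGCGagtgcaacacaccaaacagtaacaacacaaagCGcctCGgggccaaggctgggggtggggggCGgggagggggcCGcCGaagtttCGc
Ablim1 promoter, chr19:57197632-57197881: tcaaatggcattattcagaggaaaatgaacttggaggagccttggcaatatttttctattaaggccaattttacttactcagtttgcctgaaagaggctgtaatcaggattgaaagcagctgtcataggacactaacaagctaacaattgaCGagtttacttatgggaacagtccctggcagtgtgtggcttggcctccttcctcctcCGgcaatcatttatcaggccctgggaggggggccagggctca
The letters CG, which read the same on both strands, occur 6 times in the upstream and 14 times in the downstream Zeb2 promoter, and 2 times in that of Ablim1. Over the 418 annotated start sites inside members, which belong to 353 genes, the 250 bases before the start held a median of 15 CpG. For 2406 start sites inside regions of all 6 E12.5 lists the median was also 15, and for all 20085 autosomal start sites it was 10. At least 10 CpG were found before 72.0% of the starts in members, 70.9% of those in regions of all 6 lists and 51.3% of all starts. In the 35 starts inside members of all 3 WT lists the median was 10, no higher than over all starts.

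Members were mostly weak regions of the deep WT libraries. They made up 11.7% of the 12311 E12.5 regions, and those in all 3 WT lists 0.942%. The opposite pattern, an interval in at least 2 KO lists and no WT list, was found for 67 regions (0.544%). These counts follow from the rule and are given without a test. A member had a median count of 39 in WT replicate 2 (quartiles 28 and 58, highest 1211) and of 21 in WT replicate 3 (16 and 31, highest 504). The 126 members listed in WT replicate 1, the shallowest E12.5 library, had a median count of 10 there. Per covered kb and at equal depth, the counts were 8.80, 5.66 and 6.25 in WT replicates 1, 2 and 3.

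The 7662 regions found in both WT replicates 2 and 3 were ordered by their mean normalised count in these libraries and divided into 10 groups of near equal size. Of the 1429 members among them, 1320 (92.4%) lay in the lower 5 groups. In the lowest group, 54.1% of the regions were members, and in the upper 3 groups 20 of 2299 (0.870%). WT replicate 1, the shallowest E12.5 library, held 2.20% of the regions of the lowest group and 98.0% of the eighth. KO replicates 1, 2 and 3 held 2.98%, 22.6% and 33.5% of the lowest group and 91.5%, 96.6% and 97.7% of the eighth. KO replicates 2 and 3 thus held more of the weakest regions than WT replicate 1 did, and KO replicate 1, which is deeper than WT replicate 1, about as few.

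**Figure D1:**
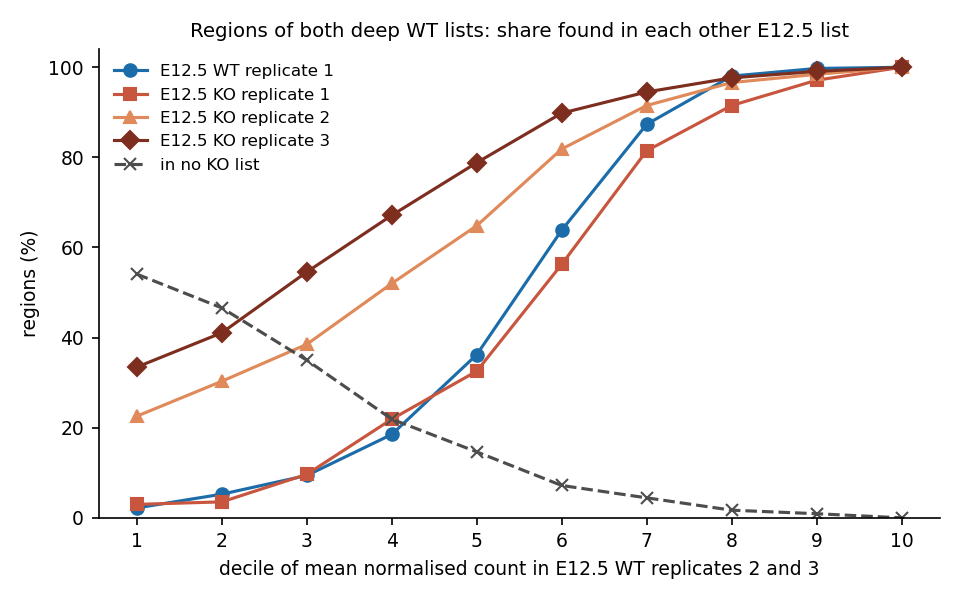
Regions found in both E12.5 WT replicates 2 and 3, in 10 groups of rising mean normalised count (x axis), and the share of each group with an interval in WT replicate 1 and in each KO library (y axis, percent; n = 762 to 771 regions per group). The dashed line is the share in no KO list, which falls from 54.1% in the lowest group to 0.870% over the upper 3.

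Scaled to the depth of each KO library, the mean WT level of a member would correspond to a median count of 10.7 in KO replicate 1, 13.8 in KO replicate 2 and 12.3 in KO replicate 3. The lowest counts those lists contain are 10, 6 and 6, over intervals of any width. Median interval widths in the 3 KO lists were 5000, 2000 and 1800 bp, and counts were not compared at like width. In KO replicate 1, 1117 members (77.6%) would fall below the 10th percentile of listed counts, which is 16, and only 63 would exceed its median of 39. In KO replicates 2 and 3, 141 (9.80%) and 43 (2.99%) would fall below the 10th percentile, and 346 and 341 would exceed the median of 20 and 18. In all, 619, 5 and 15 members would fall below the lowest count listed in KO replicates 1, 2 and 3. Most scaled counts thus lay within the range of all 3 KO lists, at its low end in KO replicate 1. This scaling takes depth as the only difference between libraries; how far thresholds, background and Ezh2 loss each contributed was not tested. When all 6 lists were cut to the length of the shortest by score, 381 regions met the rule. Without either WT replicate 2 or WT replicate 3, 127 regions met it, without KO replicate 3, 2303, and without WT replicate 1, 1434.

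The rule's edge can be seen in 4 regions. Just inside it, chr1:93222401-93225400 within Crocc2 was listed with counts of 29 and 16 in WT replicates 2 and 3, and chr2:47835801-47840000, in a gene desert, with 48 and 15. Just outside, chr1:35742601-35752800 had 139 and 91 in the same libraries and chr1:59515201-59522800, over the start of Gm973, had 9, 120 and 86 in WT replicates 1 to 3. Each of these last regions was left out for a single interval with a count of 6 in KO replicate 3.

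Members were narrow. Their median width was 3.4 kb (quartiles 2.4 and 5.0 kb, widest 29.2 kb), and together they covered 5.87 Mb. Regions in at least 2 WT lists and exactly 1 KO list had the same median, 3.4 kb, while regions in all 6 lists had a median of 9.8 kb and the 67 KO-only regions one of 1.8 kb. Members in all 3 WT lists were wider, with a median of 5.8 kb. Another member lay within 5 kb of 194 members (13.5%), and 321 (22.3%) lay within 10 kb of a region of all 6 lists, against 20.8% of the other E12.5 regions.

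**Figure D2:**
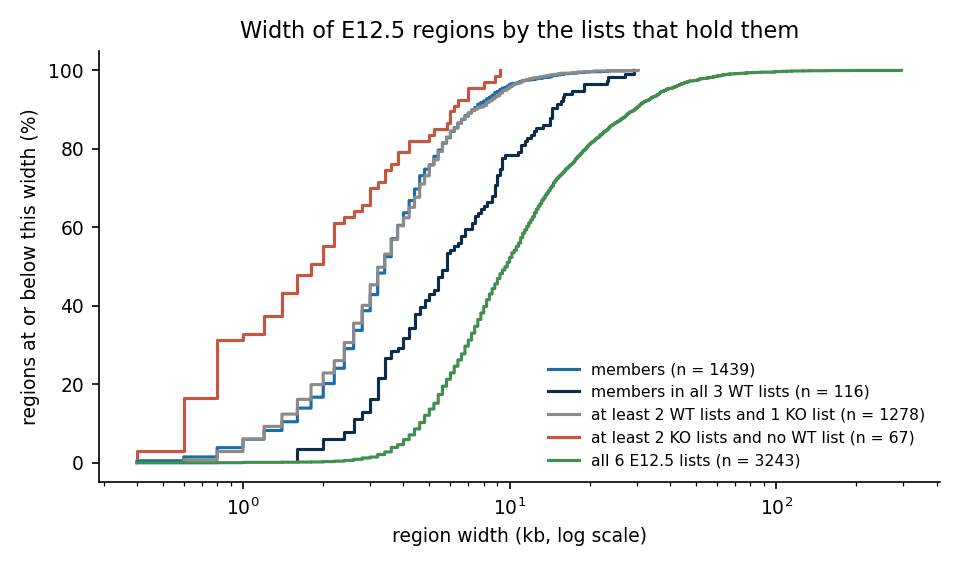
Cumulative share of regions (y axis, percent) at or below a given width (x axis, kb, log scale) for the members and 4 other sets of E12.5 regions. The curve of the members (median 3.4 kb) runs with that of regions held by 1 KO list and lies well to the left of regions in all 6 lists (median 9.8 kb).

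Members lay more often away from gene starts than the strong regions, which were also wider (median 9.8 against 3.4 kb). A protein-coding gene start was inside 332 members (23.1%), against 35.2% of the other E12.5 regions and 55.2% of regions in all 6 lists. A further 563 (39.1%) lay within a gene body without its start, and 544 (37.8%) overlapped no protein-coding gene, against 13.6% of regions in all 6 lists. Regions in at least 2 WT lists and exactly 1 KO list had the members' median width. Of these, 34.4% held a start and 31.1% overlapped no protein-coding gene. In all, 835 of 20665 autosomal protein-coding genes (4.04%) overlapped a member, and these were longer than the average gene, with a median length of 37.9 kb against 17.5 kb. Long genes have more room for a member, so that the median gene length of each group with members is given beside its share. Any E12.5 region, member or not, was overlapped by 6785 of the 20665 genes.

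Regulators of the MGE and ventral forebrain were almost all marked in both genotypes. Of 29 such genes (median length 5.87 kb), 27, Gli2 among them, overlapped a region of all 6 E12.5 lists. A member was overlapped by 2 of the 29, Zeb2 and Gli2. The Zeb2 member had counts of 31, 240 and 154 in the WT libraries, or 68.7, 89.3 and 83.3 after normalisation. The 3 libraries were close to each other at equal depth, and the nearest region of all 6 lists was 4668 kb away. At E15.5 it was listed weakly in both genotypes, with a count of 12 in WT replicate 3 and of 14 and 26 in KO replicates 1 and 3. Gli2 encodes a transcriptional effector of Sonic hedgehog signalling, and its member, chr1:118966201-118974200, had counts of 88 and 52 in WT replicates 2 and 3. It stands just beside a Gli2 region that all 6 lists held.

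Among the wider group of homeobox, forkhead, Sox, T-box and Pax genes, which also took in GATA factor genes, 181 of 216 (83.8%) overlapped a region of all 6 lists. A member was overlapped by 11 (5.09%, median length of the group 6.71 kb). The members were small pieces within or beside these genes, and only that at Foxp1 contained a gene start. Forkhead gene Foxp4 had a member at chr17:47862601-47872000, 9.4 kb wide, with counts of 109 and 15 in WT replicates 2 and 3. Foxp1 had members at chr6:99203201-99206800, with 95 and 45, and at chr6:99519201-99522400, with 43 and 39. Meis2, Gata3, Gata4, Lhx4, Pax7, Lmx1a, Tbx15, Tbx18 and Sox12 were the other genes, each with members of 1.2 to 6.6 kb. Only those of Gata4, Lhx4 and Sox12 among these 9 genes were seen again at E15.5, each in 1 library.

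Of 68 axon guidance genes (median length 64.9 kb), 10 (14.7%) overlapped a member, against 4.04% of all genes. These genes also overlapped any E12.5 region more often, 57 of 68 against 6785 of 20665, which was not adjusted for. Among the ligands, Efna5, an ephrin, had 3 members, the widest at chr17:62738601-62748000 with WT counts of 9, 202 and 153. Slit3, a secreted ligand of Robo receptors, had 4, the widest at chr11:35585801-35594200 with 92 and 84 in WT replicates 2 and 3. Efnb2 had 2 adjoining members, of which chr8:8655201-8662000 contained a start of the gene and had counts of 95 and 66. None of the 3 Efna5 members had an interval at E15.5, and those of Slit3 and Efnb2 had 1 interval each, of a count of 10 in KO replicate 3 and of 9 in WT replicate 2.

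Of 38 neuronal leucine-rich repeat and synapse adhesion genes (median length 25.8 kb), 4 (10.5%) overlapped a member and 28 any E12.5 region. Lingo1, a transmembrane leucine-rich repeat protein that restrains axon outgrowth and myelination, held the 2 widest members of all. Elfn1, which recruits presynaptic receptors at synapses onto somatostatin interneurons, had a member at chr5:139971801-139974000 with counts of 30 and 20 in WT replicates 2 and 3. It was also found at E15.5 in WT replicates 2 and 3, with 14 and 10, and in no KO list. Nrxn2 and Slitrk1 had members of 4.0 and 1.8 kb with no interval at E15.5. Of 99 cadherin and protocadherin genes (median length 94.9 kb), only Cdh3 and Cdh16 (2.02%) overlapped a member.

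Voltage-gated ion channel genes gave 17 of 135 (12.6%) with a member (median length 46.7 kb). The widest was at Cacna2d2, an auxiliary calcium channel subunit, followed by Kcne3, an auxiliary potassium channel subunit, at chr7:100183601-100193200 with WT counts of 9, 155 and 79, and by Kcnq1 at chr7:143343601-143352400 with 122 and 16. The Kcne3 member had no interval at E15.5, whereas that of Kcnq1 was in all 6 E15.5 lists. The pacemaker channel genes Hcn2, Hcn3 and Hcn4, the calcium channel genes Cacna1a and Cacna1g and the sodium channel gene Scn8a had members of 1.2 to 3.6 kb. Genes of neurotransmitter receptors and receptor-associated proteins gave 4 of 96 (4.17%, median length 38.7 kb): Grik4, Grik3, Grina and Htr1f. Grik4, a kainate receptor subunit, had the widest, chr9:42597201-42608000 with counts of 9, 98 and 70, and no interval at E15.5.

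Signalling genes of the Wnt, BMP, TGF-beta and FGF families gave 4 of 99 (4.04%, median length 16.9 kb), the share of all genes: Tgfbr3, Tgfbr2, Bmp1 and Wnt5a. Any E12.5 region, however, was overlapped by 83 of these 99, against 6785 of all 20665 genes. Collagens and laminins gave 5 of 53 (9.43%, median length 107 kb), and 34 of the 53 overlapped any E12.5 region. Solute carriers gave 21 of 324 (6.48%, median length 29.0 kb), and in 14 of these the member contained the gene start, as at Slc1a3, the astroglial glutamate transporter (counts of 33 and 19 in WT replicates 2 and 3), and Slc16a1, a monocarboxylate transporter (26 and 21). Any E12.5 region was overlapped by 146 of the 324 solute carrier genes. Of 386 Zfp zinc-finger genes (median length 18.0 kb), 8 (2.07%) overlapped a member. Olfactory and vomeronasal receptor genes (1467) and housekeeping genes (18) overlapped none.

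Scaled to KO depth, the members with the highest counts stood far above the lowest counts that the KO lists contain for intervals of any width. Those of the upper 3 level groups were 9.0 to 29.2 kb wide, and KO intervals of like width were not compared. In the upper 3 level groups there were 20 members, 15 of them also in WT replicate 1, 7 on chromosome 9 and none with a gene start inside; this subset was formed after the values were seen. Scaled to KO replicate 1, their WT levels would give counts of 76.6 to 295, where the list starts at 10. At Lingo1 the member chr9:56751601-56778600, inside the gene, had counts of 50, 1211 and 504 in WT replicates 1 to 3 and no interval in any KO library. Its WT level is the mean normalised count of WT replicates 2 and 3. Scaled to the KO depths, that level would give counts of 295, 379 and 338 in KO replicates 1, 2 and 3. The adjoining member chr9:56721601-56750800, 29.2 kb wide, had 9, 674 and 298. Summed counts of WT replicate 1 were lower at equal depth, with 111 in the first and 19.9 in the second member. The other WT libraries had 273 to 451 and 161 to 251. The intervals of WT replicate 1 covered 11.6 kb of the first and 2.0 kb of the second member. In WT replicate 2 they covered 26.4 and 29.2 kb, and in WT replicate 3 also more than in WT replicate 1. How much of the lower sums came from this difference in covered length was not tested. The nearest region of all 6 E12.5 lists, KO included, lay 7.8 kb from the first and 35.6 kb from the second member.

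Tgfbr3, which encodes the TGF-beta co-receptor betaglycan, had counts of 45, 811 and 361 at chr5:107138201-107155400. A member of 23.4 kb at chr12:33101401-33124800, 8.50 kb from the cadherin-related gene Cdhr3, had 22, 924 and 399. Cacna2d2 had 20, 708 and 315 at chr9:107460401-107483600. Summed counts of these 3 members were high in both deep WT libraries and lower at equal depth in WT replicate 1, whose intervals were shorter. They covered 9.2 kb (Tgfbr3), 4.4 kb (near Cdhr3) and 4.4 kb (Cacna2d2). Those of WT replicates 2 and 3 covered 15.4 and 16.2, 23.2 and 20.2, and 23.2 and 17.6 kb. The 3 members lay 78.6 kb (Tgfbr3), 13.8 kb (near Cdhr3) and 40.4 kb (Cacna2d2) from the nearest region of all 6 E12.5 lists. A member at chr19:14233601-14249400, 199 kb from the Groucho-family corepressor gene Tle4, had 33, 549 and 351, and one within Sntb2, a syntrophin gene, at chr8:106970001-106986000 had 27, 628 and 235. Prtg, an immunoglobulin-superfamily gene of the early neural tube, had 22, 230 and 117 at chr9:72850601-72859200.

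Some strong members were in WT replicates 2 and 3 only. Kirrel3, a synaptic immunoglobulin adhesion gene, had 763 and 196 at chr9:34657801-34675600, and Smyd3, a methyltransferase gene, 447 and 169 at chr1:179056401-179078400, the fifth widest member. Boc, a Sonic hedgehog co-receptor gene, had 257 and 173 at chr16:44523001-44539000. Atp8a2, a phospholipid flippase gene, had 360 and 180 at chr14:59728001-59744800. In these 4 members WT replicate 1 resembled the KO libraries in having no interval. The nearest region of all 6 E12.5 lists lay 0.4 kb from the Smyd3 and 9.2 kb from the Boc member. For Kirrel3 and Atp8a2 it lay 156.8 and 1285.6 kb away.

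**Figure D3:**
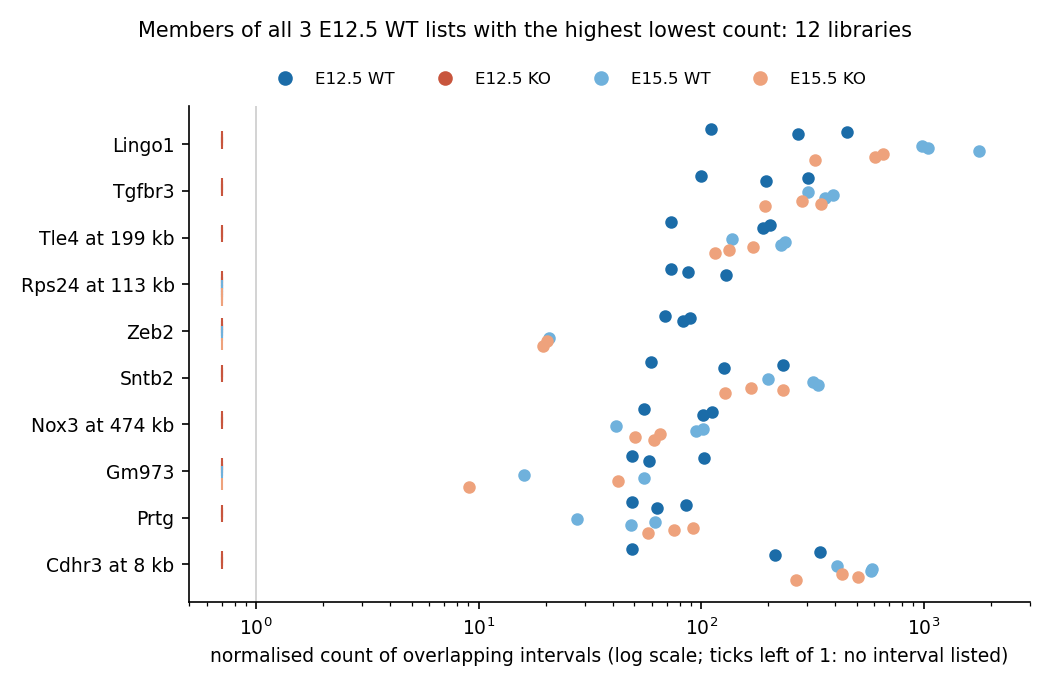
Normalised counts (x axis, log scale) of the 10 members of all 3 E12.5 WT lists with the highest lowest count, in all 12 libraries. Each row is a member, named by the gene it overlaps or the nearest gene with its distance, each point a library, and ticks left of 1 mark libraries with no interval. All E12.5 KO libraries are ticks; 7 of the 10 members have points for all 6 E15.5 libraries.

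The E15.5 lists took no part in choosing the members. A count quoted for E15.5 is that of every interval that overlaps the member, which can extend past it and be shared with a neighbour. Most members were weak or unlisted there too: 785 (54.6%) had an interval in no E15.5 list, 436 (30.3%) in at least 1 WT list, 483 (33.6%) in at least 1 KO list, 265 (18.4%) in both genotypes and 56 (3.89%) in all 6 lists. Of the 116 members in all 3 E12.5 WT lists, 35 were in no E15.5 list and 19 in all 6. Of the 20 strongest members, 16 were in all 6 E15.5 lists, KO included, 1 was in 4 lists, 2 were in a single list and 1 in none.

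The share of members with an interval at E15.5 was 7.71%, 16.7% and 22.6% for WT replicates 1 to 3 and 23.3%, 13.6% and 18.0% for the KO replicates. The groups overlapped, with means of 15.7 ± 7.49% (SD, n = 3) and 18.3 ± 4.87%. The difference of 2.59 percentage points was smaller than the spread between replicates (exact two-sided permutation test, p = 0.6, smallest possible p 0.1). It turned to -1.39 points without WT replicate 1, the shallowest library. The share of member bases covered was 14.2 ± 6.58% in WT and 15.8 ± 4.62% in KO (difference 1.66 points, exact permutation p = 0.7). That difference changed sign without E15.5 WT replicate 1 (-1.93), without E15.5 KO replicate 1 (-0.70), without E12.5 WT replicate 3 (-0.93) and over the members of all 3 WT lists (-1.16). The regions absent from the KO lists at E12.5 were thus found in the E15.5 KO libraries at a share that these lists do not separate from the WT share. Depth was higher in KO at this stage (0.247 ± 0.0876 against 0.118 ± 0.0386 counts per window, n = 3 each), and its part in these shares was not tested.

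Other E12.5 regions were found at E15.5 in 36.5 ± 7.33% of cases in WT and 44.1 ± 4.02% in KO. Within each library the share of members was lower than that of the other regions: members minus others came to -21.2, -20.3 and -20.9 percentage points in WT and to -23.8, -26.0 and -27.7 in KO. All 3 KO gaps were wider than all 3 WT gaps, with a KO minus WT difference of -5.05 points (exact permutation p = 0.1, the smallest 3 against 3 libraries can give). On the scale of ratios the groups did not separate: the share of members was 0.413 ± 0.131 times that of other regions in WT and 0.410 ± 0.0772 times in KO (p = 1.0, exact permutation test). Against regions in at least 2 WT lists and exactly 1 KO list, members minus those regions came to -4.69 ± 2.42 points in WT and -9.94 ± 2.81 in KO (exact permutation p = 0.2). The 67 regions of the opposite pattern, KO lists only at E12.5, were found in 0, 4.48 and 7.46% of cases in E15.5 WT and 25.4, 16.4 and 23.9% in KO, without overlap between the groups (exact permutation p = 0.1).

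**Figure D4:**
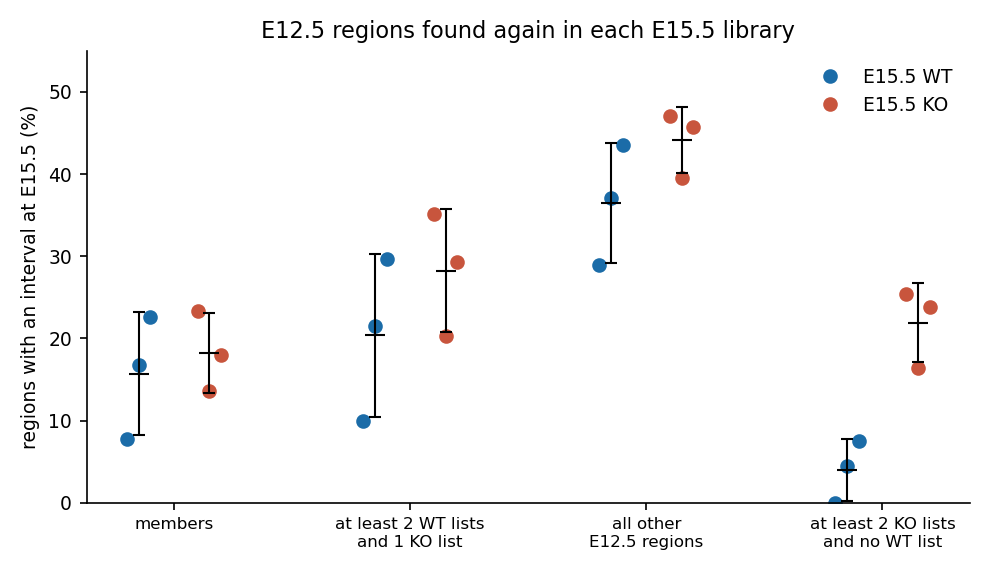
Share of E12.5 regions (y axis, percent) with an interval in each E15.5 library, for the members and 3 other sets. Points are libraries, bars the mean and SD (n = 3); the WT and KO points of the members overlap (7.71 to 22.6% and 13.6 to 23.3%), those of the KO-only regions do not.

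Few members repeated their E12.5 pattern at E15.5. An interval in at least 2 WT and no KO list was found for 28 members (1.95%), where the same held for 0.78% of all E12.5 regions. The reverse, at least 2 KO and no WT list, was found for 46 members (3.20%), against 3.84% of all regions. With all 3 lists of a genotype required, 1 member was in all 3 WT and no KO list (0.0695% of members, 0.0569% of all regions) and 8 in all 3 KO and no WT list (0.556% of members, 1.23% of all regions). The 1 member, named after its values were seen, was chr6:99961801-99965400, 235 kb from the prokineticin gene Prok2, with counts of 7, 13 and 24 at E15.5 in WT.

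The widest of the 28 members was chr1:78008201-78023000, 14.8 kb wide and 78.3 kb from Pax3, a regulator of the dorsal neural tube. It had counts of 245 and 98 in E12.5 WT replicates 2 and 3 and of 9 and 37 in the same replicates at E15.5. A member 7.39 kb from the thioesterase gene Acot11, chr4:106812401-106823800, had 8, 126 and 67 at E12.5 and 40 and 11 in E15.5 WT replicates 2 and 3. The others named by width were chr8:107816601-107826400 (10 and 14 in E15.5 WT replicates 2 and 3), chr2:152060201-152067000 (12 and 14, 14.5 kb from the neural repressor gene Scrt2) and chr7:44505801-44511400 in Mybpc2, a muscle gene (6 and 11 in WT replicates 1 and 3). Apart from the Pax3 and Acot11 members, these counts lie close to the lowest that the lists contain, 5 to 7 in the E15.5 WT libraries.

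The widest of the 8 members in all 3 E15.5 KO and no WT list was in Abcc4, a transporter gene, chr14:118589001-118595600, with counts of 44 and 27 in E12.5 WT replicates 2 and 3 and of 13, 27 and 11 at E15.5 in KO replicates 1 to 3. The Ablim1 member, chr19:57193401-57199000, whose promoter is printed above, had 69 and 29 at E12.5 and 22, 17 and 32 at E15.5 in KO. Agap1, an Arf GTPase-activating protein gene, had 15, 25 and 14 at chr1:89650401-89655000, and Thegl had 23, 27 and 42 at chr5:77058001-77061800. The member chr5:147160801-147164200, 24.5 kb from Gsx1, a homeobox regulator of ganglionic eminence progenitors, had 28 and 15 in E12.5 WT replicates 2 and 3 and was touched by E15.5 KO intervals with 82, 127 and 135. Those intervals covered 0.4, 3.4 and 0.2 of its 3.4 kb in KO replicates 1 to 3, so that in replicates 1 and 3 they lay almost wholly outside it. In all 5 cases the E15.5 WT libraries, each shallower than any E15.5 KO library, had no interval.

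Counts at E15.5 could be compared where every E15.5 list had an interval. Each count was summed over the library's own intervals in the region. The bases covered thus differed between libraries, which was not adjusted for. This gave 2781 E15.5 union regions, tested for KO against WT with edgeR's quasi-likelihood test at library sizes proportional to depth, with Benjamini-Hochberg adjustment over all of them; 48 were lower in KO (1.73%) and 88 higher (3.16%) at adjusted p below 0.05. Over members lay 96 of these regions, which touched 109 of the 1439 members (7.57%), so that the comparison says nothing on the other members. Of the 96, 12 were lower and 5 higher, with a median log2 change of -0.13 and 60 negative values; over all 2781 the median was -0.02. Only 35 of the 96 touched no other E12.5 region, and in those 2 were lower and 2 higher, with a median of -0.41. A call in a wider region can therefore rest on neighbouring regions that the E12.5 KO lists did hold, and the neighbours are named below. A region lost from any E15.5 list is not in this test. The counts of calls depended on the settings: with regions of at least 4 lists included, missing intervals taken as 0, 2 regions over members were lower and 1 higher, those at Foxp4, Rasl11b and Gsx1 described below, and the other 14 lost the call.

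**Figure D5:**
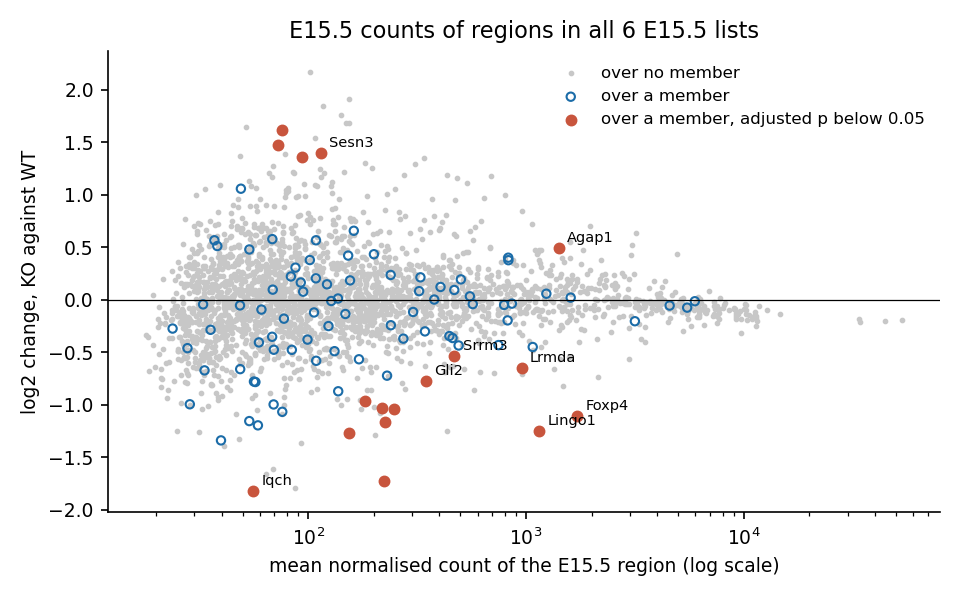
Log2 change of E15.5 counts, KO against WT (y axis), against the mean normalised count (x axis, log scale) for the 2781 regions in all 6 E15.5 lists. Open circles are the regions over members, filled circles the 12 lower and 5 higher of them at adjusted p below 0.05, with gene names where one is overlapped.

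The Lingo1 members lay under 1 E15.5 region, chr9:56721201-56779800, which besides them held only 0.6 kb of a region seen in WT replicate 2. Its normalised E15.5 counts were 1359, 1595 and 1883 for WT and 811, 818 and 422 for KO replicates 1 to 3. Every KO library was below every WT library, and the log2 change was -1.25 ± 0.20 (SE; edgeR adjusted p = 0.00209). Under the 11 alternative settings it ranged from -1.41 to -0.99, and the adjusted p passed 0.05 only with regions of at least 4 lists included (0.0509). The Lingo1 stretch missing from the E12.5 KO lists was thus listed at E15.5 by all 3 KO libraries, with lower counts than in WT. In these bulk samples fewer cells with the mark and less mark per cell cannot be told apart. Iqch, an IQ-motif gene, had counts of 10, 553 and 216 at E12.5 in its member chr9:63503801-63522800. At E15.5 its normalised counts were 72.6, 125 and 62.4 in WT and 23.3, 34.9 and 16.5 in KO, a log2 change of -1.83 ± 0.37 (edgeR adjusted p = 0.00959), and the E15.5 region touched no other E12.5 region. The intervals counted there covered 8.0, 13.0 and 6.0 kb of the member in WT and 4.6, 5.6 and 1.8 kb in KO. How much of the change came from this difference in covered length was not tested. The Iqch call was lost without E15.5 WT replicate 2 (log2 -1.45) and with regions of at least 4 lists included, at edgeR adjusted p up to 0.0844.

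Foxp4, a forkhead repressor gene, gave the lowest adjusted p. Its E15.5 region, chr17:47895401-47936800, had normalised counts of 2100, 2481 and 2475 in WT and 1147, 1158 and 966 in KO, a log2 change of -1.11 ± 0.12 (edgeR adjusted p = 0.000166). Of its 41.4 kb, however, 31.4 kb is a region that all 6 E12.5 lists held, with counts of 518, 5152 and 2382 in WT and 105, 215 and 212 in KO; the members are 2 pieces of 3.4 and 3.8 kb at its edge. The region chr5:74154601-74187000, 8.32 kb from Rasl11b, a small GTPase gene, had 225, 368 and 421 in WT and 109, 142 and 65.4 in KO (log2 -1.73 ± 0.27, edgeR adjusted p = 0.0016). Its member of 9.8 kb had E12.5 counts of 289 and 117, and the 3 other E12.5 regions in it were in no KO list either. Both calls held under all 11 alternatives.

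The region 57.3 kb from Foxb1, a forkhead gene of the diencephalon, chr9:69818201-69847200, was made of 2 members of all 3 WT lists and a piece of a weak region. It had 263, 311 and 352 in E15.5 WT and 156, 182 and 84.2 in KO (log2 -1.17 ± 0.24, edgeR adjusted p = 0.0103). Lower counts were also called at chr14:48410801-48432400, 13.7 kb from Tmem260 (log2 -1.05), in Lrmda (-0.65) and at chr8:108239401-108252600, 26.7 kb from Zfhx3, a homeobox and zinc-finger gene (-0.96). In these 3 the member was a minor piece beside a region that at least 1 E12.5 KO list held. Further down the order were Gli2 (-0.78), the region 144 kb from Foxp1 (-1.27), the region 159 kb from the adhesion gene Cadm1 (-1.03) and Srrm3, a neuronal splicing factor gene (-0.54). The Gli2, Cadm1 and Srrm3 regions also held a region of all 6 E12.5 lists, of which 18.0, 10.2 and 18.6 kb lay inside them, against 7.0, 5.6 and 0.8 kb of a member; that near Foxp1 held members alone. Each of these last 4, and the Zfhx3 region, lost the call without some single libraries.

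In 5 regions over members the E15.5 counts were higher in KO. That near Gsx1, chr5:147151001-147168000, had 55.3, 62.3 and 41.6 in WT and 138, 153 and 114 in KO (log2 1.35 ± 0.26, edgeR adjusted p = 0.00767), and kept the call in all 11 alternatives; 9.6 of its 17.0 kb is a region that E12.5 KO replicates 2 and 3 held. At chr16:78835401-78847000, 83.8 kb from Chodl, the region of 11.6 kb touched 2 members, of 4.4 and 4.6 kb, and no other E12.5 region. There the normalised counts were 38.0, 52.2 and 26.0 in WT and 114, 95.1 and 112 in KO (log2 1.47 ± 0.30, edgeR adjusted p = 0.0103). Sesn3, a stress-response gene, had 118, 42.2 and 39.9 in WT and 178, 143 and 164 in KO (log2 1.39 ± 0.33, edgeR adjusted p = 0.0244). The only E12.5 region under the Sesn3 region was a member, which covered 7.2 of its 14.6 kb. The region 108 kb from Gpr26 (log2 1.61) and Agap1 (0.49) were the remaining ones. The Gpr26 region held 2 members and 1 region seen in WT replicate 2 alone, whereas the Agap1 region, 116.2 kb wide, held 12 other E12.5 regions beside a member of 4.6 kb, 2 of them in all 6 lists. The Sesn3, Gpr26 and Agap1 calls were lost without some single libraries. Of the 5 calls, only that near Gsx1 held with regions of at least 4 lists included. E15.5 regions over members thus included some with more counts relative to library depth in KO than in WT. Absolute amounts of the mark were not measured.

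Other strong members gave no call at E15.5. Tgfbr3 had E15.5 counts of 87, 195 and 209 for WT and 195, 286 and 257 for KO over the member named above, and Cacna2d2 29, 68 and 93 against 95, 115 and 91. Kirrel3 had 198, 353 and 398 against 676, 823 and 1024. At equal depth, Tgfbr3 had 301, 392 and 362 in WT and 284, 344 and 193 in KO, and Cacna2d2 100, 137 and 161 against 138, 138 and 68.4, with overlap between the groups. The log2 changes of their E15.5 regions were -0.37 ± 0.22 and -0.25 ± 0.28 (edgeR adjusted p = 0.460 and 0.743). Kirrel3 had 685, 709 and 690 in WT and 984, 991 and 770 in KO at equal depth, every KO library above every WT library, with a log2 change of 0.37 ± 0.12 that did not pass (edgeR adjusted p = 0.100). At chr14:24610201-24624600, 113 kb from Rps24, E12.5 counts of 33, 235 and 240 in WT replicates 1 to 3 (73.1, 87.4 and 130 normalised) were followed by no interval in any of the 6 E15.5 lists. The member chr10:21171001-21190000, 10.0 kb from Myb, had 9, 341 and 158 at E12.5 and at E15.5 only 10 in WT replicate 2, and Boc only 11 in WT replicate 3. These last 3 members were strong at E12.5 in WT and nearly or wholly unlisted in both genotypes at E15.5.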

How the data were processed

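Per the submitters' processing notes, reads were handled with cutadapt, Bowtie2, SAMtools, Picard and deepTools and intervals called with SICER on GRCm38/mm10; versions and settings are not given in the sources used here. The 12 WT and KO interval lists, 1 per library, were used, and the 6 heterozygous samples were not analysed here. Each list holds, per interval, a count deposited by the authors and a score deposited by the authors; the score of intervals of 1 window equals the negative natural log of a Poisson probability, from which the mean count per 200 bp window (depth) was recovered. Coordinates are 1-based. Intervals joined when they overlapped by at least 1 bp. The members and the gene lists were chosen with earlier results of these data known. Genes came from the RefSeq table (20665 autosomal protein-coding genes; promoter sequences for 16457 of them).

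Named members were the 10 of all 3 WT lists with the highest lowest normalised count, the 5 widest, the 5 with the highest level in WT replicates 2 and 3, the widest over each gene list, up to 5 of each one-sided E15.5 pattern, those called at E15.5, and 4 at the edge of the rule; the 20 of the upper level groups and chr6:99961801-99965400 were added after the values were seen. Shares were compared by exact two-sided permutation tests of 3 against 3 libraries (20 assignments). Counts were tested with edgeR 4.0.16 (R 4.3.3) on the deposited counts; DESeq2 1.42.0, TMM factors, other filters and single libraries left out were alternatives. On simulated counts for 2781 regions, the test recovered 65.5% of 200 regions changed 2-fold, with 6 false calls. Same-numbered E15.5 WT and KO libraries did not deviate together (correlations -0.10, -0.01 and -0.08). This cannot show whether they share a litter or batch, and the main tests took the libraries as unpaired. The labels call the replicates biological; where tissue of several embryos was combined is not stated per sample. Python 3.11.15 with numpy 2.4.6, pandas 2.3.3, scipy 1.17.1 and matplotlib 3.10.9 was used.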

Additional observations from a re-analysis of the deposited data

How the results depend on the processing

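The number of members, 1439, moved to 381 with lists of equal length and to 116 when all 3 WT lists were required, and ranged from 127 to 2303 with single libraries left out. The E15.5 difference in the share of members (KO minus WT, 2.59 points) ranged from -1.39 to 6.05 with single libraries left out and was reversed without E15.5 WT replicate 1 (-1.39). The difference in covered bases (1.66 points) ranged from -1.93 to 4.55 and was reversed over members of all 3 WT lists (-1.16), without E12.5 WT replicate 3 (-0.93) and, at E15.5, without KO replicate 1 (-0.70) or WT replicate 1 (-1.93). The gap between members and other regions (-5.05 points) ranged from -6.63 to -3.37. On the ratio scale, chosen after seeing the data, it was -0.0025, and against regions of exactly 1 KO list, also chosen after seeing the data, -5.26.

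Over all regions tested at E15.5, 48 were called lower and 88 higher. TMM factors gave 85 lower and DESeq2 79 lower. Regions of at least 4 lists gave 8 lower and 39 higher, with 2 and 1 over members. Leaving out single libraries gave 18 to 90 lower and 48 to 92 higher, with 7 to 20 lower and 2 to 7 higher over members. The cause of these shifts was not tested.

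The replicate numbers are shared between the groups, and whether they pair the samples is not known here. With the replicate block, 41 regions were lower and 74 higher, 11 and 5 of them over members, and the share differences were 2.59 (sign-flip p = 1.0, exact) and 1.66 points (p = 0.75, exact); among the named regions, Srrm3 lost its call under the block (log2 -0.54).

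Depth limits these lists: a member is known only above each list's own lowest count, 6 to 13 at E12.5, and an unlisted region has no value.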

Other observations

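Members also covered genes that make no protein. Of 12408 autosomal long noncoding RNA genes, 250 (2.01%) overlapped a member, as did 9 of 1136 microRNA genes (0.792%), 3 of 1286 small nucleolar RNA genes and 20 of 8884 pseudogenes, against 4.04% of protein-coding genes. Among the microRNAs was Mir33, inside Srebf2, a regulator of sterol synthesis. Its member, chr15:82196601-82200400, was 0.8 kb from a region of all 6 lists, had counts of 34 and 18 in E12.5 WT replicates 2 and 3, and had no interval at E15.5; it was named after its values were seen.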
